A study of Mus musculus with 20 samples.

Results

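Astrocyte transcripts were followed in RNA from cells sorted as microglia. The 9 genes are *Slc1a2*, *Slc6a11*, *Atp1b2*, *Aqp4*, *Gja1*, *Gpm6a*, *Sparcl1*, *Itih3* and *Mt3*. They were selected on their normalized counts in injured against non-injured samples, because several of them were lower after spinal cord injury, and all 9 were found by symbol among the 16810 genes of the table. Differences between injured and non-injured cells therefore describe the choice and are given with no test. The name under which they were grouped, membrane transcripts lost after injury, holds only in part. The products of *Sparcl1* and *Itih3* are secreted, that of *Mt3* lies in the cytosol, and *Aqp4* was not lower in every injured group.

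Adult CX3CR1+/eGFP mice carry 1 copy of the fluorescent reporter eGFP in place of the fractalkine receptor, so that microglia and some blood monocytes are fluorescent. This genotype was shared by every group, the non-injured one included. Cells with high eGFP were sorted from the thoracic spinal cord around the lesion, and polyadenylated RNA was sequenced. The 20 samples were 3 from non-injured (NI) mice, 8 after lateral hemisection (HS) and 9 after full transection (FT). Each lesion was sampled 72 h, 1 week and 2 weeks later, in triplicate except HS at 1 week, which had 2 samples. The reporter also marks infiltrating monocytes. The samples are described as biological replicates and more mice are named than there are samples, so a sample may hold RNA pooled from several animals, and the labels tie no sample to an animal. The p-values measure the spread between these samples.

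Astrocytes clear glutamate and GABA from synapses, buffer ions and water through channels and pumps on their end-feet, and are joined to each other by gap junctions. After injury they become reactive: intermediate filament genes such as *Gfap* and *Vim* go up, and genes for mature functions often go down. Microglia come from a different lineage and are not known for these transporters and channels.

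The label of the cells was checked first. All 11 microglia genes examined had reads in every sample, and their summed level was 23556 to 33033 CPM (counts per mega-read of the scaled library size) in NI, while the 17 injured samples held 19427 to 39681 CPM. The 9 astrocyte transcripts summed to 315 to 672 CPM in NI. Depth ran from 3.87 to 34.1 M reads (mega-reads) per sample, and each of the 9 genes had reads in all 20 samples, with as few as 3 reads for *Gpm6a* in 1 HS sample at 2 weeks. In bulk RNA, fewer cells of a type and less RNA per cell cannot be told apart.

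Per kilobase of exon, which allows genes to be compared, *Sparcl1* was the most abundant of the 9 in NI at 58.5 ± 24.6 CPM per kb (SD, n = 3), above 96.3% of genes with a known length. *Mt3* followed with 30.5 ± 7.13 CPM per kb, then *Atp1b2* with 14.2 ± 7.61 and *Slc1a2* with 8.62 ± 2.63. *Slc6a11* was lowest at 1.58 ± 0.254 CPM per kb, above 45.1% of genes. On the same scale the microglial receptor gene *P2ry12* stood at 1659 ± 294 CPM per kb, *Cx3cr1* at 448 ± 4.82 and *Gfap* at 10.7 ± 3.47. All 9 were thus minor next to these microglial receptor genes, with 3 above and 6 below *Gfap*. The length used joins all annotated exons of a gene (13133 bases for *Slc1a2*, 4218 for *Gfap*), which need not be the length of the transcripts expressed. The order against *Gfap* depends on this choice.

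The 9 genes lie on different chromosomes for the most part. In GRCm38 (GENCODE vM21) *Slc1a2* spans 102658659 to 102790784 on the plus strand of chromosome 2, *Slc6a11* spans 114131241 to 114249952 on the plus strand of chromosome 6, and *Gja1* spans 56377330 to 56402513 on the plus strand of chromosome 10. *Atp1b2* lies on chromosome 11 (69599736 to 69605942, minus), *Sparcl1* on chromosome 5 (104079111 to 104113733, minus) and *Itih3* on chromosome 14 (30908572 to 30923760, minus). *Gpm6a* (54954843 to 55060871) and *Mt3* (94152607 to 94154146) both lie on the plus strand of chromosome 8. The exons of 1 of the 9 overlap another annotated gene: *Slc1a2* and *Gm13872*, on the opposite strand, share up to 166 bases. Strandedness is not given in the sources used here, so reads in that stretch cannot be assigned to either gene.

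The stretch before the start sites of the 9 genes was read from the RefSeq promoter table of GRCm38.p6, which matched 6 of them with 7 start sites. *Gpm6a* had 2 of the 7, and 1 of these lies 175409 bases from the nearest GENCODE start of that gene. The 150 bases before the start are shown for 3 genes with different functions: the glutamate transporter, the main gap junction protein and a GABA transporter. Capitals mark the half-site of nuclear factor I (NFI), a family of factors active in astrocytes, searched as TTGGC on both strands.
Slc1a2 (chr2:102706288-102706437, plus strand, before an internal start site of the gene): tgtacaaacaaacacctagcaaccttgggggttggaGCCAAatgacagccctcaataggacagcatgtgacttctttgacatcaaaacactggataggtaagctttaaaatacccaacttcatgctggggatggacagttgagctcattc
Gja1 (chr10:56377150-56377299, plus strand): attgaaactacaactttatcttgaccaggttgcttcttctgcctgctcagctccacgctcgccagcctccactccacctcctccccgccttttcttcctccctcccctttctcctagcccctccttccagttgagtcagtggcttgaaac
Slc6a11 (chr6:114131091-114131240, plus strand): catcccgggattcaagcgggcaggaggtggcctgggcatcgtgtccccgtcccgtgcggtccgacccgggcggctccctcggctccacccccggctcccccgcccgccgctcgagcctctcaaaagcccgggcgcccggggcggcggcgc
The half-site occurs once before *Slc1a2* and not in the other windows printed. In the full 250 bases, it was found in 2 of the 7 windows, against 41.5% of 32851 windows of the same length. The STAT motif TTCNNNGAA was in 1 of 7 (7.02% of all windows), the SOX motifs ACAAAG and ACAATG in 0 of 7 (25.2%) and TATAAA in 1 of 7 (12.4%). A match is a description of these letters and no evidence of binding, and shared regulation of the 9 was not tested. The 150 bases differed in composition, with 78.7% G or C before *Slc6a11* and 44.7% before *Slc1a2*.

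*Slc1a2* encodes GLT-1, the transporter that clears most synaptic glutamate. Its level was 152, 99.9 and 87.4 CPM in the 3 NI samples. After HS it was 29.2, 23.2 and 17.8 CPM at 72 h, 25.7 and 24.4 CPM at 1 week, and 8.73, 46.0 and 41.5 CPM at 2 weeks. After FT it was 29.2, 59.6 and 39.7 CPM at 72 h, 29.1, 22.9 and 27.5 CPM at 1 week, and 4.49, 16.3 and 12.9 CPM at 2 weeks. Every injured sample lay below every NI sample, and the lowest mean was that of FT at 2 weeks, at 9.92% of the NI mean. The difference from NI on the log2(CPM + 0.5) scale was -2.24 (SE 0.47) after HS at 72 h, -1.41 (SE 0.47) after FT at 72 h and -3.41 (SE 0.47) after FT at 2 weeks.

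*Slc6a11* encodes GAT-3, a GABA transporter of astrocytes. It was at 9.41, 7.46 and 7.0 CPM in NI, and the injured samples, at 0.624 to 4.82 CPM, did not overlap with NI. Like *Slc1a2*, it had its lowest HS mean at 72 h, at 1.45 ± 0.544 CPM (SD, n = 3), against 3.23 ± 0.711 CPM (SD, n = 2) at 1 week. Its values rest on 4 to 65 reads per injured sample.

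*Atp1b2* encodes the beta-2 subunit of the sodium-potassium pump, also known as the adhesion molecule on glia. Its level was 90.5, 55.1 and 28.6 CPM in NI. After FT it was 25.8, 28.6 and 27.8 CPM at 72 h, 11, 8.67 and 9.62 CPM at 1 week, and 1.03, 6.10 and 3.82 CPM at 2 weeks. After HS it was 26.8, 12.2 and 12.3 CPM at 72 h, 8.85 and 6.50 CPM at 1 week, and 1.87, 15.6 and 14.3 CPM at 2 weeks. Only 1 FT sample at 72 h reached the lowest NI sample. With a difference of -3.91 (SE 0.57) after FT at 2 weeks, it was the lowest of the 9 relative to NI, at 6.28% of the NI mean.

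*Aqp4* encodes aquaporin-4, the water channel of astrocyte end-feet. NI samples held 34.1, 26.6 and 18.3 CPM. After FT the level was 22.6, 51.7 and 26.6 CPM at 72 h, 11.7, 15.9 and 22.2 CPM at 1 week, and 1.59, 6.36 and 6.49 CPM at 2 weeks. After HS it was 22.5, 20.9 and 10.5 CPM at 72 h, 6.94 and 11.9 CPM at 1 week, and 1.25, 16.5 and 8.33 CPM at 2 weeks. The FT samples at 72 h overlapped with NI and had the highest mean of all 7 groups, at 128% of NI, a difference of 0.30 (SE 0.59). By 2 weeks no sample of either injury overlapped with NI, and the differences were -2.03 (SE 0.59) after HS and -2.49 (SE 0.59) after FT.

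*Gja1* encodes connexin 43, the main gap junction protein of astrocytes. It was at 44.4, 24.2 and 17.4 CPM in NI. After FT it was 15.2, 17.5 and 16.9 CPM at 72 h, 7.78, 8.74 and 8.04 CPM at 1 week, and 0.842, 4.01 and 4.2 CPM at 2 weeks. After HS it was 14.4, 12.7 and 6.36 CPM at 72 h, 5.31 and 5.77 CPM at 1 week, and 4.05, 12.2 and 7.13 CPM at 2 weeks. The means after FT were lower at each later time and did not overlap between times, with 57.8%, 28.6% and 10.5% of the NI mean. After HS the samples at 2 weeks overlapped with those at 72 h.

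*Gpm6a*, a membrane glycoprotein of the proteolipid family that neurons express as well, had 19.2, 12.4 and 8.73 CPM in NI, against 0.468 to 6.72 CPM once injured. Its lowest group mean was that of HS at 1 week, at 1.33 ± 0.154 CPM (SD, n = 2), and not that of FT at 2 weeks, at 1.59 ± 0.599 CPM (SD, n = 3). The ranges of these groups overlapped.

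Among the secreted products, *Sparcl1*, a matricellular protein that promotes synapse formation, had 252, 153 and 111 CPM in NI. It had 41.4, 39.1 and 28.5 CPM after HS at 72 h, 31.6 and 32.0 CPM at 1 week, and 17.5, 65.4 and 42.5 CPM at 2 weeks. After FT it had 35.8, 61.0 and 44.4 CPM at 72 h, 27.6, 27.0 and 32.8 CPM at 1 week, and 4.77, 42.7 and 23.2 CPM at 2 weeks. No injured sample reached NI, and the injured groups overlapped widely with each other. *Itih3*, a heavy chain of the inter-alpha-trypsin inhibitors that bind hyaluronan, had 12.9 to 30.3 CPM in NI and 1.59 to 6.43 CPM after injury, with group means of 12.5% to 24.9% of NI. Its difference was nearly the same at 72 h after both injuries, at -1.86 (SE 0.38) after HS and -1.89 (SE 0.38) after FT.

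*Mt3*, a metallothionein that binds zinc and copper in the brain, had 39.4, 33.6 and 24.4 CPM in NI. At 72 h it had 26.3, 21.5 and 13.7 CPM after HS and 20.1, 30.4 and 25.5 CPM after FT, so that both injured groups overlapped with NI. At 1 week both HS samples were near 8.8 CPM (8.85 and 8.78). FT samples at 2 weeks were spread from 2.53 to 23.0 CPM. *Mt3* had the smallest difference from NI of the 9 at 2 weeks after either injury, at -1.52 (SE 0.50) after HS and -1.99 (SE 0.50) after FT.

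**Figure D1:**
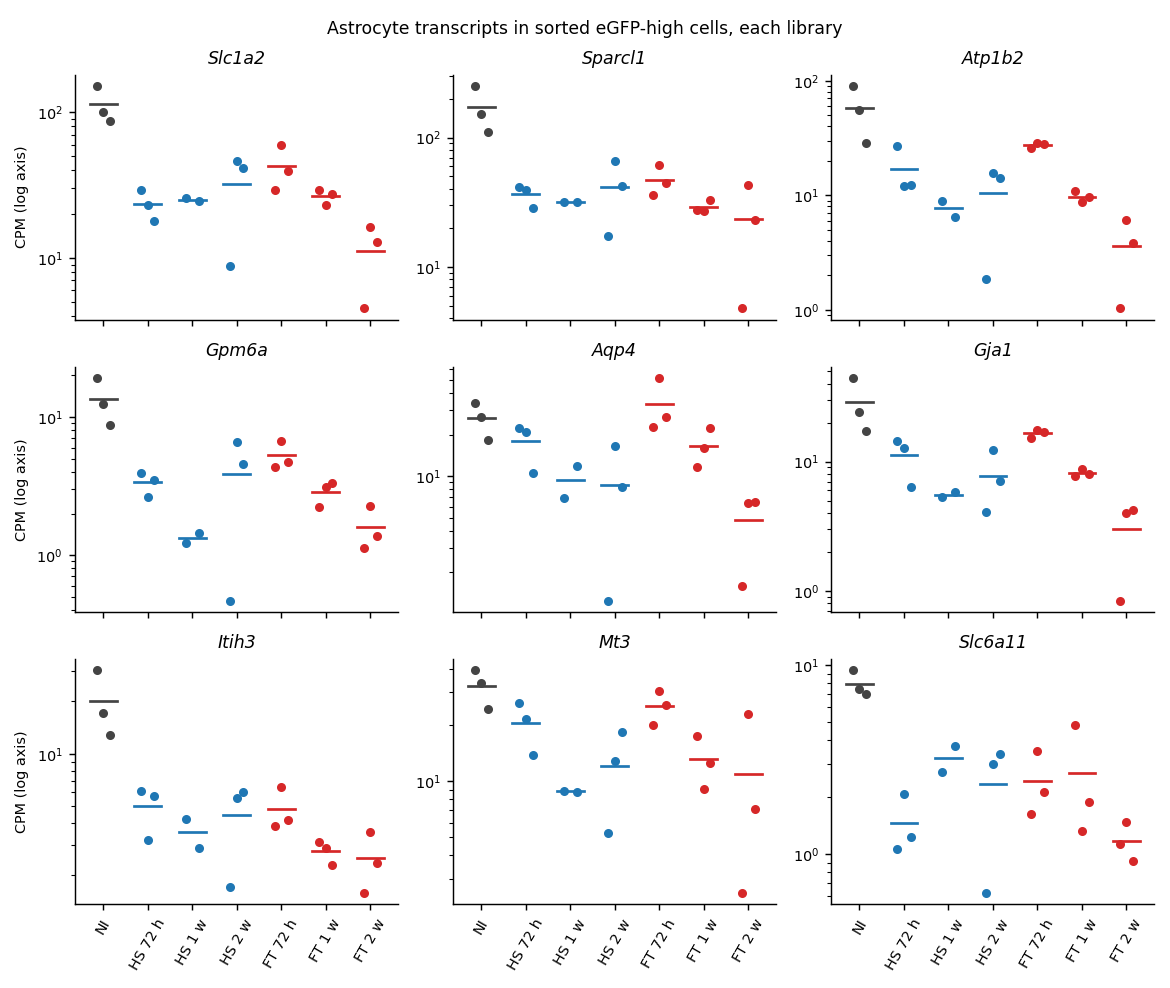
Each panel plots 1 gene on its own log axis of CPM, with a point per sample and a bar at the group mean for NI (grey), HS (blue) and FT (red). *Slc1a2*, *Sparcl1*, *Gpm6a*, *Itih3* and *Slc6a11* have no injured point at the level of NI, and *Aqp4* at 72 h after FT has.

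Taking the 9 genes by time, the samples of an injured group all lay below NI for 7, 9 and 9 of them at the successive times of HS (24.9%, 17.1% and 10.3% of all genes). After FT this held for 5, 8 and 9 of them (22.7%, 10.1% and 13.3% of all genes). Since the genes were picked for lower values after injury, nothing is read from these counts. In the same order, the median difference of the 9 was -1.80, -2.16 and -2.03 for HS. For FT it was -1.23, -1.99 and -2.74, against medians between -0.11 and 0.02 over all genes.

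The median difference from NI stayed between -0.94 and -3.01 in the 6 injured groups when any 1 sample was left out.

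The times after each injury were then set side by side. After FT, all 9 genes were lower at 2 weeks than at 72 h, by -0.77 (SE 0.42) for *Slc6a11* to -2.99 (SE 0.57) for *Atp1b2*, and 7 of them had no overlap between these times (13.8% of all genes). *Aqp4* differed by -2.78 (SE 0.59), *Gja1* by -2.48 (SE 0.43) and *Slc1a2* by -2.00 (SE 0.47). After HS the differences between these times ran from -1.45 (SE 0.59) for *Aqp4* to 0.38 (SE 0.42) for *Slc6a11*, with 6 of the 9 below 0, and none was free of overlap (15.6% of all genes were). *Gpm6a*, at -0.22 on the log2 scale, had the higher mean CPM at 2 weeks (3.89 against 3.36). The median of the 9 was -0.26 after HS, 0.24 with 4 below 0 without HS 2 weeks replicate 1, and -0.78 with 8 below 0 without HS 2 weeks replicate 2. After FT all 9 were below 0 whichever sample was left out, with a median of -1.32 to -2.34. These samples also entered the choice of genes, so the values are descriptions. The difference between the courses was not tested.

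**Figure D2:**
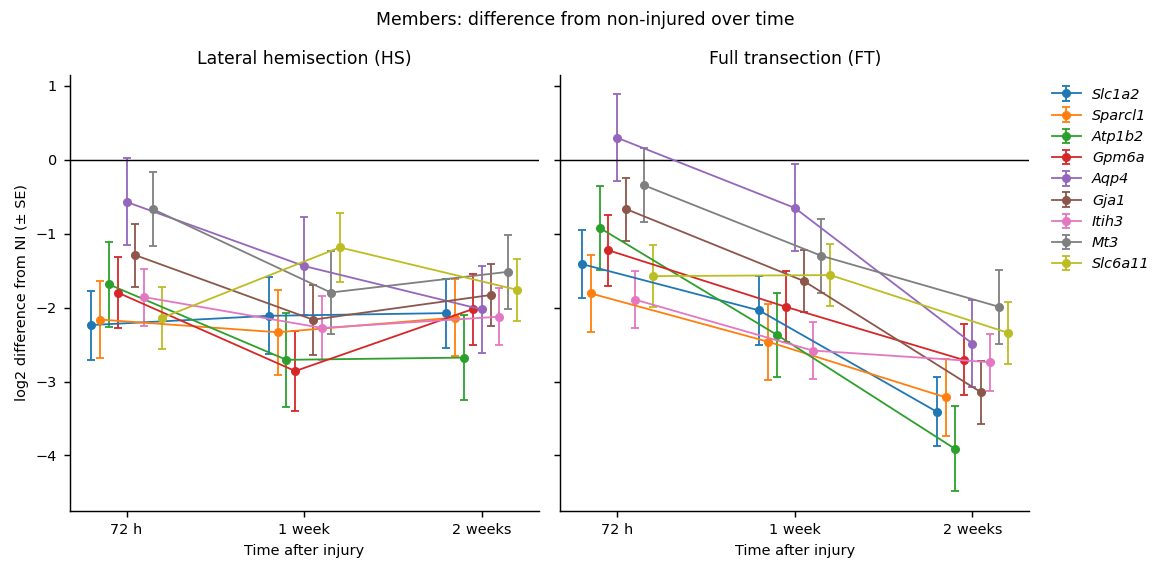
The log2 difference of each gene from NI is plotted with its standard error against time after HS (left) and FT (right). After FT the lines run down to between -1.99 and -3.91 at 2 weeks, and after HS they lie between -1.52 and -2.68 at 2 weeks.

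FT was compared with HS at each time to ask whether severity changed these transcripts, a comparison that uses no NI sample. The injured samples had entered the choice of the genes, so the unadjusted p-values and intervals are descriptions. A change was called at a limma p-value adjusted over 16810 genes under 0.05 and at least 2-fold. None of the 9 was called at any of the times (0.0% of all genes), and none was called by the edgeR quasi-likelihood or likelihood ratio test or by DESeq2. Over all genes the quasi-likelihood test called 0 at each time. The likelihood ratio test called 0, 8 and 1 of all genes at 72 h, 1 week and 2 weeks, and DESeq2 called 0, 7 and 1. The adjusted limma p-values of the 9 were 0.999 or higher. At 2 weeks the 9 differences were all below 0, with a median of -0.69 against 0.01 over all genes, and 4 of the 9 had an unadjusted limma p under 0.05 (2.61% of all genes). These were *Slc1a2* at -1.34 (95% interval -2.30 to -0.37), *Gja1* at -1.32 (-2.20 to -0.43), *Atp1b2* at -1.23 (-2.42 to -0.05) and *Sparcl1* at -1.08 (-2.15 to -0.01). The samples of HS and FT overlapped for all 9 genes. Leaving out HS 2 weeks replicate 1 moved the median to -1.57, leaving out HS 2 weeks replicate 3 moved it to -0.37, and *Gja1* ranged from -1.69 without the former to -0.73 without FT 2 weeks replicate 1.

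At 72 h the differences between FT and HS pointed the other way for 8 of 9 genes, with a median of 0.57, and 0 of 9 had an unadjusted p under 0.05 (3.0% of all genes). *Slc1a2* differed most clearly, at 0.83 (95% interval -0.14 to 1.79). All FT samples lay above all HS samples for *Slc1a2*, *Aqp4*, *Gja1* and *Gpm6a* (4.1% of all genes), in each by less than 1 CPM. At 1 week this held for *Gpm6a*, *Gja1* and *Mt3* (6.79% of all genes), 0 of 9 had an unadjusted p under 0.05 (4.31% of all genes), and *Gpm6a*, with the smallest p, differed by 0.87 (-0.25 to 1.98). The intervals leave room for differences of 2-fold or more in most genes, so that equal levels were not shown.

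**Figure D3:**
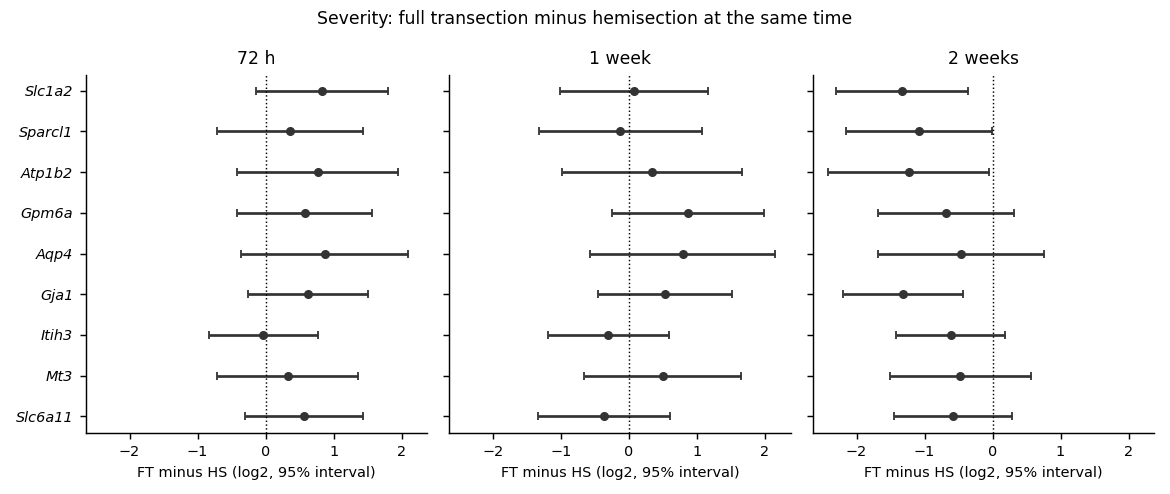
Points give FT minus HS on the log2 scale and bars the 95% interval from limma, for each gene at 72 h, 1 week and 2 weeks. The points lie mostly right of 0 at 72 h and all left of 0 at 2 weeks, where 4 intervals do not include 0.

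Other genes of mature astrocytes, none of them among the 9, were taken from a list of 72 by function, of which 69 were in the table. Over the successive times, 23, 13 and 26 of the 69 fell with HS (4.31%, 0.482% and 0.797% of all genes). None rose with HS (9.08%, 1.7% and 2.43% of all genes). With FT, 17, 18 and 35 fell (4.09%, 1.2% and 1.36% of all genes), and 2 rose at 72 h (8.14% of all genes): *Aldh1l1*, a folate enzyme used as an astrocyte marker, by 1.21 and *Fabp7*, a fatty acid binding protein, by 1.15. The median difference of the 69 was -0.79, -0.93 and -0.96 with HS, and with FT it was -0.65, -0.71 and -1.17. Without NI replicate 1 the counts called were 15, 8 and 5 with HS, and 7 and 6 at the first 2 times of FT, and without HS 2 weeks replicate 1 the count at that time was 4.

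By function, the falls at 2 weeks after FT took in 10 of 13 ion transport and junction genes, 9 of 12 secreted products, 6 of 13 receptors and adhesion molecules, 4 of 10 uptake genes, 5 of 14 enzymes and 1 of 7 transcription factors. Among the largest was that of *Aldoc*, a glycolytic enzyme (-2.92). The transcription factor that fell was *Sox9*, at -1.17. *Aldh1l1* (-0.06) and *S100b* (-1.18) were not called there. Between 72 h and 2 weeks, 14 of the 69 fell after FT (2.68% of all genes) and 2 after HS (3.37%), and the count after FT was 7 without FT 2 weeks replicate 1, 8 without FT 72 h replicate 2 and 9 without replicate 3 of either group.

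Some genes of reactive astrocytes rose. Of 12 listed, 5, 3 and 2 rose over the times of HS (9.08%, 1.7% and 2.43% of all genes). Over those of FT, 5, 4 and 3 rose (8.14%, 2.86% and 3.53% of all genes). None fell in any injured group (0.482% to 4.31% of all genes). At 2 weeks the median difference of the 12 was 0.05 after HS and 0.14 after FT, with 5 and 6 of them below 0. Without HS 1 week replicate 1, 0 of the 12 rose at that time. *Gfap*, the astrocyte intermediate filament, rose by 2.20 after HS and 2.86 after FT at 72 h and by 1.28 after FT at 1 week, and was at -0.20 after FT at 2 weeks. *Vim*, the intermediate filament vimentin that activated microglia also make, rose in all 6 groups, by 1.26 to 2.95. *Serpina3n*, a protease inhibitor, rose by 4.86 after FT at 72 h. *Timp1*, a metalloproteinase inhibitor, passed the test at 72 h alone, at 2.48 and 2.85, and had no reads in at least 1 sample. At 72 h after FT, *Gfap* was therefore at 712% of its NI mean while *Slc1a2* was at 37.8% of its own. With every sample scaled to the same total, the number rising after FT at 1 week was 1 in place of 4.

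**Figure D4:**
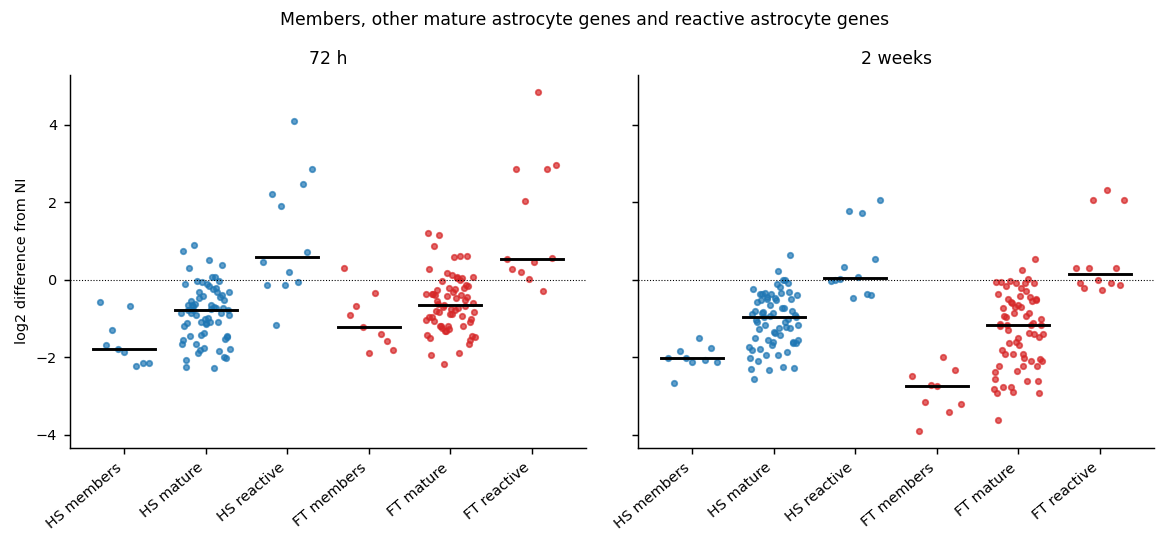
Each point is the log2 difference of 1 gene from NI at 72 h (left) and 2 weeks (right), for the 9 genes, 69 other mature astrocyte genes and 12 reactive genes after HS (blue) and FT (red), with a black bar at the median. At 2 weeks after FT the medians are -2.74, -1.17 and 0.14.

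Relatives of the 9 in the same gene families did not share a single pattern. Of 27 in the table, 6, 2 and 2 fell over the times of HS (4.31%, 0.482% and 0.797% of all genes). Over those of FT, 7, 4 and 4 fell (4.09%, 1.2% and 1.36% of all genes). None rose, against 9.08%, 1.7% and 2.43% of all genes with HS and 8.14%, 2.86% and 3.53% with FT. Leaving out 1 sample gave 0 to 8 falls, with 2 after FT at 72 h without NI replicate 1, 1 after FT at 1 week without its replicate 2 and 0 after HS at 2 weeks without its replicate 1. *Gjb6* (connexin 30), an astrocyte gene, fell in all 6 groups, with differences of -1.24 to -2.77. *Gpm6b* fell after FT at 2 weeks (-1.88), *Slc1a4* in 3 groups and *Atp1b1*, the neuronal pump subunit, at 72 h after both injuries (-1.50 and -1.29) on 36 reads or fewer per sample of those groups. *Sparc*, the close relative of *Sparcl1* that microglia express at 5470 ± 685 CPM (SD, n = 3) in NI, was not called in any group and stayed within -0.05 to 0.52. *Slc1a3*, the other astrocyte glutamate transporter (GLAST), was not called either, at -0.85 to 0.38. Nor were *Mt1* (0.30 to 0.70), *Mt2* (-0.56 to 0.67) or *Atp1b3* (0.18 to 0.69), and the signs of *Sparc*, *Mt1* and *Atp1b3* were not the same under quantile scaling or scaling to 1 total.

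Across the 20 samples the 9 genes rose and fell together. Pearson's r between pairs on the log2 scale was 0.54 to 0.95 with a median of 0.85 over 36 pairs, and 0.35 to 0.93 with a median of 0.83 after the group means were taken out. The points share libraries and their depth, so these are descriptions. NI replicate 1 was highest and replicate 3 lowest for 9 of 9 genes, HS 2 weeks replicate 1 was lowest for 9 of 9, FT 72 h replicate 2 was highest for 9 of 9, and FT 2 weeks replicate 1 was lowest for 8 of 9. In these samples the order among the 69 other astrocyte genes was the same for most: NI replicate 1 was highest for 55, FT 72 h replicate 2 highest for 41, HS 2 weeks replicate 1 lowest for 52 and FT 2 weeks replicate 1 lowest for 46.

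The 5 genes most like the mean of the 9 over the 20 samples, among 14051 with a mean of at least 1 CPM, included *Aldoc* (r = 0.97), *Mmd2* (0.96) and *Cpe* (0.95). Within groups the values of these genes were 0.96, 0.95 and 0.94. Of the 50 most alike, 19 were in the astrocyte lists (69 mature and 12 reactive genes). The much shorter oligodendrocyte list (12 genes) held 1 of them and the neuron list (13 genes) 0, so these counts cannot be compared directly.

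Markers of other cells were summed in the same way. The sum of the 9, which were picked for lower values after injury, averaged 26.3% of NI over the 17 injured samples. The 69 other mature astrocyte genes averaged 68.6% (2065 to 2923 CPM in NI, 1207 to 1972 CPM after injury, with no overlap). By function they differed widely, and the 13 ion transport and junction genes, at 29.6%, were close to the 9. The enzymes averaged 52.1%, secreted products 69.0%, uptake genes 75.0%, receptors and adhesion molecules 85.9% and transcription factors 91.4%. Over the same samples the sum of 13 neuron genes averaged 42.4% (56.6 to 95.6 CPM in NI, 20.4 to 51.2 CPM after injury, with no overlap), and 12 of the 13 had reads in every sample. Of the 13, 3, 0 and 0 were called lower over the times of HS (4.31%, 0.482% and 0.797% of all genes). Over those of FT it was 4, 4 and 3 (4.09%, 1.2% and 1.36% of all genes), and 1 to 3 of the 13 were above 0 in each injured group. Oligodendrocyte genes, all 12 detected throughout, averaged 73.1% (1310 to 2665 CPM in NI, 484 to 2647 CPM after injury) and overlapped with NI. The 8 endothelial genes averaged 84.4% (52.1 to 75.3 CPM in NI, 26.2 to 77.7 CPM after injury), also with overlap. The 4 fibroblast and pericyte genes averaged 74.3% (11.6 to 33.8 CPM in NI, 2.34 to 53.0 CPM after injury) and the 4 ependymal genes 73.2%, with *Foxj1*, *Dynlrb2* and *Tmem212* at 0 in some samples. The microglia list averaged 102%, but its 11 genes did not move together. At 72 h their differences from NI ran from -1.22 to 1.51 after HS and from -1.13 to 1.61 after FT. At 2 weeks after FT they ran from -1.11 to 0.74. All these percentages depend on the scaling: the CPM of a sample summed to 777426 to 830481 in NI and 878070 to 1202190 after injury.

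Within groups, the mean of the 9 had an r of 0.85 with the sum of the 69 other mature astrocyte genes and 0.53 with the reactive sum. The r was 0.83 with the neuron sum, 0.85 with the oligodendrocyte sum and 0.76 with the ependymal sum. With the endothelial sum it was 0.20, with the fibroblast and pericyte sum 0.16 and with the microglia sum -0.10 (20 samples, description). With the number of reads it was 0.14. The sum of 3 oligodendrocyte precursor genes went the other way (r = -0.88) and averaged 439% of NI after injury, mostly through *Cspg4*. In each injured group only 1 of the 3 was called higher (1.7% to 9.08% of all genes). Differences below 0 were found for 2 of the 3 at 72 h and for 1 at the later times, after either injury. Monocyte genes, at 16.2 to 23.6 CPM in NI, summed to 38.9 to 104 CPM after HS and 65.9 to 180 CPM after FT at 72 h. At 1 week they summed to 26.1 to 46.6 CPM after HS and 9.49 to 34.8 CPM after FT. At 2 weeks it was 21.7 to 33.7 CPM and 21.1 to 26.6 CPM. Of the 3 genes, 1 was called higher after HS and 3 after FT at 72 h (9.08% and 8.14% of all genes). None was called higher later (1.7% to 3.53% of all genes). Within groups their sum had an r of -0.30 with the mean of the 9. The part of these other cells in the values of the 9 transcripts was not tested.

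**Figure D5:**
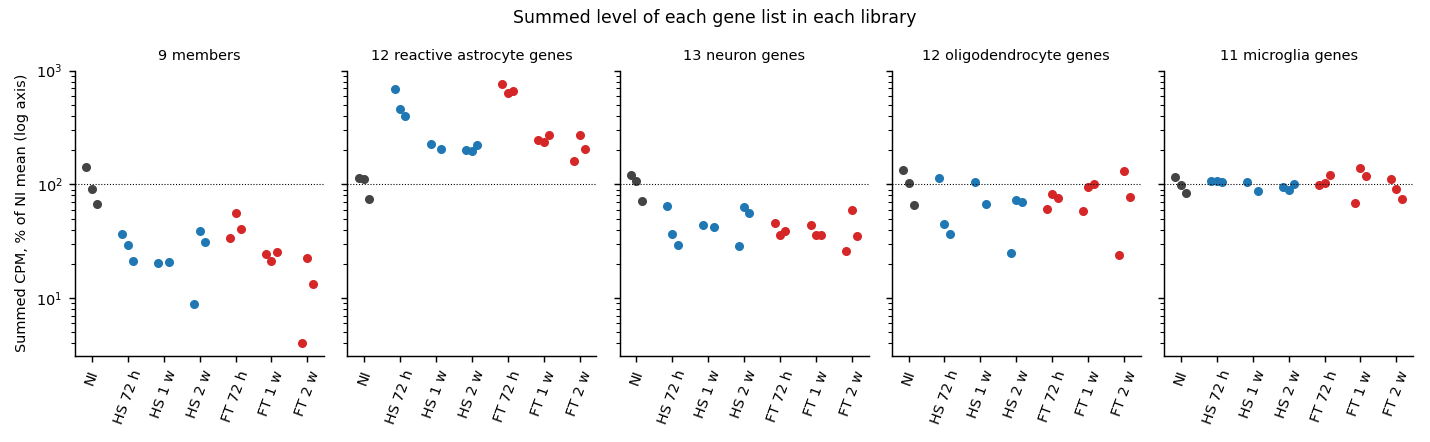
The summed CPM of 5 gene lists in each sample is plotted as a percentage of the NI mean on a log axis (dotted line at 100%), for NI (grey), HS (blue) and FT (red). The 9 transcripts and the neuron genes are below NI in every injured sample, the reactive genes above, and the microglia genes around 100%.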

How the data were processed

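Microglia were sorted as eGFP-high cells in 7 groups (20 samples). The authors removed adapter reads, mapped with TopHat2 2.0.9 to mm10, counted reads per gene with HTSeq 0.5.4p3, kept genes passing a count minimum and normalized by library size with edgeR 3.3.6. The deposited signal is this normalized count, in CPM. All 336200 values were whole multiples of 1 step per sample (tolerance 0.001 step), so whole reads were recovered, 3.87 to 34.1 M (mega-reads) per sample, for the count tests.

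The fit used log2(CPM + 0.5) in limma 3.58.1 (intensity trend, 1 mean per group, all 20 samples, Benjamini-Hochberg over 16810 genes). Alternatives were 0.1 or 1 CPM added, a filter of 1 CPM in 2 or more samples, fits to the compared samples alone, median of ratios, quantile scaling, columns scaled to 1 total, no fold limit, a replicate block, edgeR 4.0.16, DESeq2 1.42.0 and each sample left out. The 9 genes and all lists were chosen with earlier results of these data known. Apart from the 9, genes were named by rule: the ends of a list, the largest called falls at 2 weeks after FT, the 5 most alike and *Gfap*, *Vim*, *Aldh1l1*, *Sox9* and *S100b*. Other names were chosen after their values were seen. Some genes that this rule names are not reported here. Exon lengths came from GENCODE vM21, which held 15729 of the genes.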

Additional observations from a re-analysis of the deposited data

How the results depend on the processing

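The number of the 9 genes called between FT and HS was 0 at every time under each alternative run, each sample left out included. With every sample kept, the alternatives called between 0 and 8 of all genes in these comparisons, so 0 of the 9 is near the share over all genes. The number of mature astrocyte genes called against NI depended more on the setting. With every column scaled to 1 total, which moved the median of all genes by -0.17 to -0.52, it was 43 after HS at 72 h (23 in the planned fit), 34 after FT at 72 h (19) and 32 after FT at 1 week (18). The counts over all genes rose as well, to 3812 (2250), 3352 (2057) and 906 (681) in the same order. At 1 week after HS the mature astrocyte count was 13 (367 over all genes), and 29 (652) with only the samples compared. It was 20 (469) with the edgeR likelihood ratio test and 20 (455) with DESeq2. Leaving out 1 sample gave 15 to 25 after HS at 72 h, 3 to 18 after HS at 1 week and 4 to 29 after HS at 2 weeks. It gave 7 to 20 after FT at 72 h, 6 to 21 after FT at 1 week, 28 to 36 after FT at 2 weeks, and 7 to 17 for FT at 2 weeks against 72 h. A lone HS sample at 1 week is assumed to vary like the other groups.

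Between samples with the same replicate number, deviations had an r of -0.43 to 0.44 with a median of 0.0017 (57 pairs, 20 over 0.1). With other numbers it was -0.44 to 0.43 with a median of 0.00065 (114 pairs), and 9 of 20 samples were closest to their own number. No clear pairing by number was seen, but these values cannot exclude one. With a replicate block the counts of mature astrocyte genes were 23, 12 and 24 for the times of HS and 19, 18 and 36 for those of FT. Over all genes these counts were 2243, 336 and 530 for HS and 2056, 664 and 820 for FT. Between severities 0 of the 9 genes were called, and 0 of all genes. Depth limits *Slc6a11* and *Gpm6a* most, which had 3 to 65 reads in some samples.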
